A study of Mus musculus with 12 samples.

Results

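The 10 genes described here, *Ttr*, *Enpp2*, *Folr1*, *Aqp1*, *Aqp4*, *Clic6*, *Slc4a5*, *Kl*, *Sostdc1* and *Otx2*, are expressed in the choroid plexus or act in the production and movement of cerebrospinal fluid (CSF). Every probe whose annotated gene symbol is one of them was taken, which gave 15 probes for 9 genes out of 45281 probes on the array and 21946 genes with a symbol. *Slc4a5*, a sodium bicarbonate cotransporter of the choroid plexus, has no probe under its symbol and was not analysed here. The 12 mice, 3 in each of 4 groups, were sampled as whole brains on postnatal day 1, with both sexes mixed. The *nm1054* 129 mice are 129S6/SvEvTac mice homozygous for *nm1054*, a spontaneous deletion on chromosome 1 that removes *Cfap221*, a gene of motile cilia, together with *Dbi*, *Steap3*, *Sctr* and others. The WT 129 mice are 129S6/SvEvTac without the deletion. The *nm1054* B6 mice carry the same deletion on C57BL6/J and, unlike every other group, also a bacterial artificial chromosome transgene with *Steap3*, so a comparison with them includes the transgene. The WT B6 mice are C57BL6/J. The deletion causes hydrocephalus whose severity depends on the strain, and the comparisons ask how strains and genotypes differ at an age when no gross hydrocephalus is seen.

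The choroid plexus is a sheet of secretory epithelium around a vascular core that hangs into each brain ventricle and makes most of the CSF by moving ions and water from blood to ventricle. Its cells also load the fluid with carrier proteins, vitamins and hormones. In mice *Otx2* is required for the epithelium to form and be maintained, and outside the plexus the same factor patterns the forebrain and midbrain.

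Sequence was available for a window ahead of the transcription start of 4 of the 10 genes, *Aqp1*, *Kl*, *Slc4a5* and *Otx2*, which has 4 starts. Windows of *Aqp1* and *Otx2* are shown because these genes had the widest called differences between 129 and B6 brains. Of the 4 windows of *Otx2* only that with a match to the core named below is printed. Each holds the 250 bases before the start in RefSeq's annotation of GRCm38.p6, 5′ to 3′ along the gene. Capitals mark TAATCC, the core bound by Otx factors, or its reverse complement GGATTA.
*Aqp1*, chr6:55336049-55336298, plus strand: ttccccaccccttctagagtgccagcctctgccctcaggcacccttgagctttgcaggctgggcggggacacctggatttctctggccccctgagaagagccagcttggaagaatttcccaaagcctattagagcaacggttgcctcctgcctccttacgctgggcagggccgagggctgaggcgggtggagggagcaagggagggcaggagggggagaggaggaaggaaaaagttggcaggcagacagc
*Otx2*, chr14:48665110-48665359, minus strand: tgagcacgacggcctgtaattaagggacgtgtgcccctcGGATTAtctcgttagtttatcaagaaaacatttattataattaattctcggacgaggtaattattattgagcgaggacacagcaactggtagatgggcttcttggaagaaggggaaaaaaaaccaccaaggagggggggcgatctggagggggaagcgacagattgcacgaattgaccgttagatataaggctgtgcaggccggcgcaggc
The *Otx2* window holds 1 match, 211 bases before the start and in the reverse orientation. The other 3 windows of *Otx2* and those of *Aqp1*, *Kl* and *Slc4a5* hold none. Of 32851 windows of this length, 6.25% hold a match on either strand. The *Aqp1* window is 62.0% G and C with 5 CpG, and the *Otx2* window 48.4% with 14 CpG, where the median of all windows is 52.4% and 6. The other 3 *Otx2* windows have 9, 8 and 6 CpG.

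Values are log2 intensities relative to the median of the probe over the 12 brains, so they place brains against each other and carry no level of a gene. Over all probes, the array median was highest in WT 129 replicate 1, at 0.11, and lowest in WT B6 replicate 1, at -0.17. *Dbi*, a deleted gene, checks the labels at 3 probes. Its mean ran from -3.21 to -2.85 in the 6 *nm1054* brains and from 2.75 to 2.88 in the 6 WT brains. At a probe of *Xist*, the X-inactivation RNA of female cells, 6 brains lay between 2.15 and 3.13 and 6 between -3.01 and -2.15, and the high brains were replicate 1 of *nm1054* 129, replicates 2 and 3 of WT 129, replicates 1 and 2 of *nm1054* B6 and replicate 1 of WT B6. The part of sex in the results was not tested. The brains also differed in markers of the midbrain and anterior hindbrain. *En2*, an engrailed factor of that region, stood at 3.48 in *nm1054* B6 replicate 2 and 2.78 in WT B6 replicate 1 and between -0.72 and 0.28 in the other 10 brains. *En1* was highest in the same brains, at 2.18 and 2.08. Results are therefore also given without these 2 brains.

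*Aqp1* and *Folr1* were lower in WT 129 than in WT B6 brains, and *Otx2* was lower in *nm1054* 129 than in *nm1054* B6 brains. A probe is called where limma's Benjamini-Hochberg adjusted p is under 0.05 and the fold change over 1.5. Of the 15 probes, 3 were called between WT 129 and WT B6 brains, all lower in WT 129, where 3.33% of all probes were called and 1.66% were called lower. Between *nm1054* 129 and *nm1054* B6 brains 1 was called, lower in *nm1054* 129, where 3.27% of all probes were called and 1.88% lower. Under the t-test of the study's methods none of these 4 probes was called (adjusted p from 0.156 to 0.291), where it called 714 of all probes in *nm1054* and 543 in WT brains. With each gene taken as the mean of its probes, *Otx2* in *nm1054* and *Aqp1* in WT brains were called and *Folr1* was not (a log2 difference of -0.50 in WT brains, under 1.5-fold, limma adjusted p = 0.035). With the adjusted p alone the counts were 2 in *nm1054* and 5 in WT brains, where 6.43% and 7.79% of all probes passed. With an unadjusted p under 0.05 they were 8 and 10, where 22.2% and 26.7% passed. In bulk tissue a lower value from fewer cells of a type and from less RNA per cell cannot be told apart. Probe sequences were not available, so the part of strain sequence variants under the probes in these differences was not tested.

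The 3 brains of a strain lay apart from the 3 of the other at 9 of 15 probes in *nm1054* and 8 in WT brains, where 29.3% and 29.4% of all probes did so. With 129 lower these were 8 in *nm1054* and 5 in WT brains, where 6.07% and 5.59% of all probes did so. The median difference of the 15 probes was -0.33 in *nm1054* and -0.14 in WT brains, beside medians of 0.12 and 0.15 over all probes. Centring each array on its median moved the medians over all probes to 0.02 each, and 3 probes in *nm1054* and 5 in WT brains were then called, all lower in 129. Without WT B6 replicate 1 and *nm1054* B6 replicate 2, the brains highest in *En2*, 1 probe was called in *nm1054* and 5 in WT brains.

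**Figure D1:**
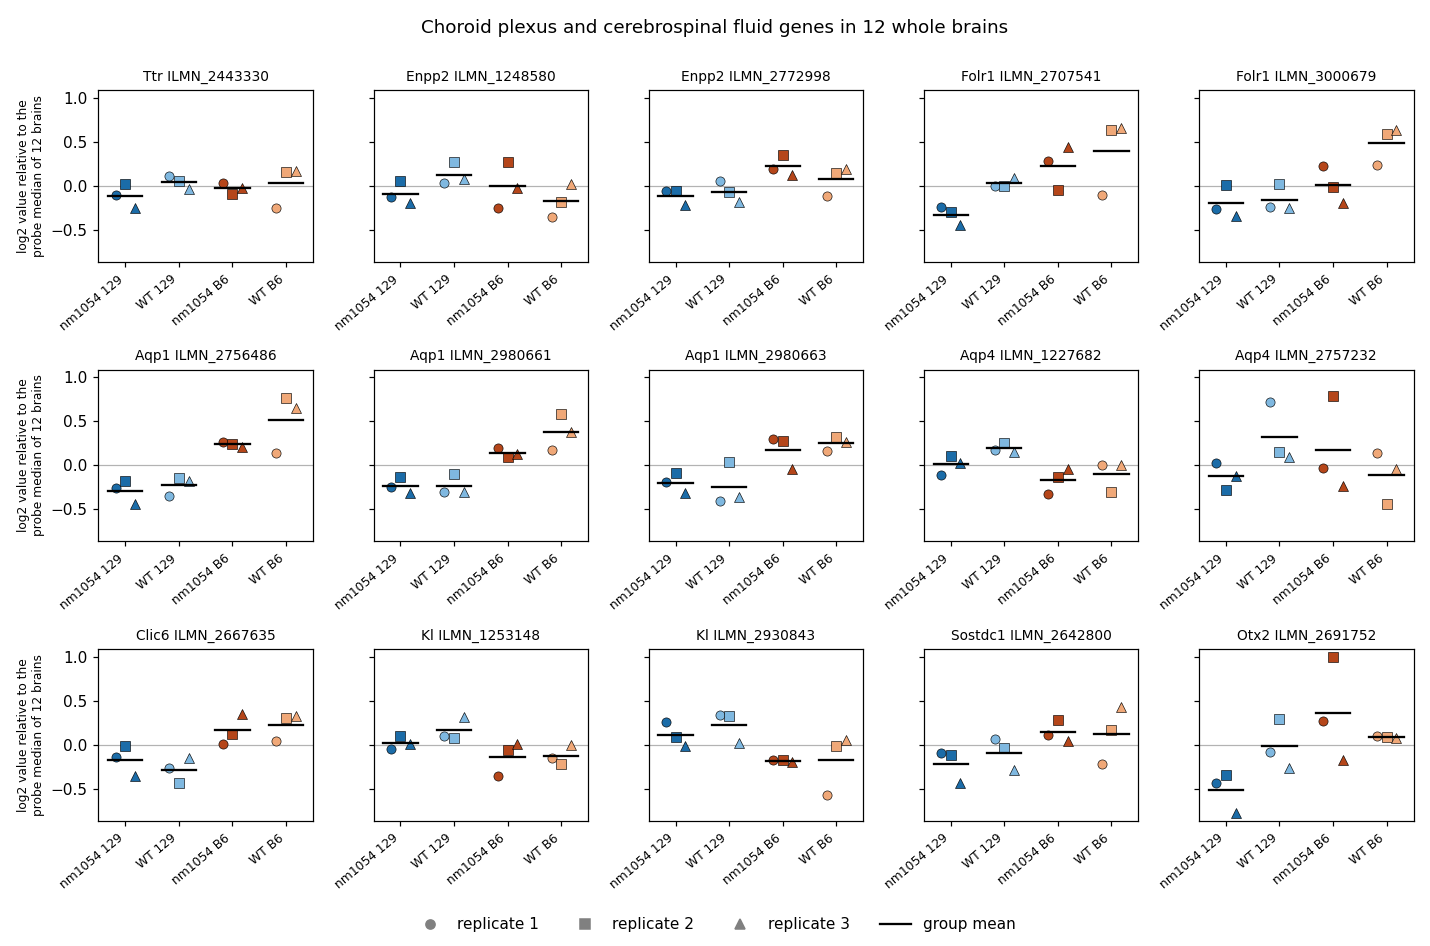
Log2 value relative to the probe median (y axis) of each of the 12 brains at the 15 probes, by group (x axis), with a symbol for each replicate number and a bar at the group mean. All 6 brains of 129 lie below all 6 of B6 at the *Aqp1* probes ILMN_2756486 and ILMN_2980661, and *Otx2* spreads widely among *nm1054* B6 brains, between -0.17 and 1.00.

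*Aqp1*, on chromosome 6, encodes the water channel of the apical membrane of the choroid plexus epithelium. At probe ILMN_2756486 the values were -0.26, -0.18 and -0.44 in *nm1054* 129 brains, against 0.27, 0.24 and 0.21 in *nm1054* B6 brains. They were -0.35, -0.14 and -0.18 in WT 129 brains, against 0.14, 0.76 and 0.65 in WT B6 brains. Every 129 brain lay below every B6 brain, and WT B6 replicate 1 was the lowest of the B6 brains. The difference between 129 and B6 was -0.53 in *nm1054* brains (adjusted p = 0.0270), which lay under 1.5-fold, and -0.74 in WT brains (SE 0.14, 1.67-fold lower, adjusted p = 0.00180), which was called.

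The other *Aqp1* probes showed the same order of strains. ILMN_2980661 had values of -0.24, -0.13 and -0.32 in *nm1054* 129 brains, against 0.20, 0.10 and 0.13 in *nm1054* B6 brains, and of -0.31, -0.10 and -0.31 in WT 129 brains, against 0.18, 0.58 and 0.38 in WT B6 brains. The strains did not overlap in either genotype. The difference was -0.37 in *nm1054* brains (adjusted p = 0.0731) and was called in WT brains at -0.62 (SE 0.12, adjusted p = 0.00244). The WT difference lay under 1.5-fold without WT 129 replicate 1 (-0.58), WT 129 replicate 3 (-0.58) or WT B6 replicate 2 (-0.52). At ILMN_2980663 the difference was -0.38 in *nm1054* brains (adjusted p = 0.109) and -0.49 in WT brains (adjusted p = 0.0307, under 1.5-fold). Within a group the 3 probes varied together over the 12 brains, with r of 0.52 to 0.87 (exact permutation within groups, adjusted p from 0.0162 to 0.0468 over 7 pairs of probes of one gene). Pooled over both genotypes, 129 minus B6 at ILMN_2756486 was -0.64 (SE 0.10, adjusted p = 0.000139), the 1 probe of the 15 called there, where 2.97% of all probes were. Without WT B6 replicate 2 it was -0.57, under 1.5-fold (adjusted p = 0.000570). With the adjusted p alone 8 of the 15 passed in this pooled comparison, where 21.5% of all probes did, and with an unadjusted p under 0.05 it was 12, where 39.4% did. The interaction at this probe was 0.21 (95% interval -0.20 to 0.63, limma adjusted p = 1.00).

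*Folr1*, on chromosome 7, encodes folate receptor alpha, which carries folate across the choroid plexus into the CSF. Its probes placed the strains apart in different genotypes. At ILMN_3000679 the values were -0.24, 0.02 and -0.25 in WT 129 brains, against 0.24, 0.58 and 0.63 in WT B6 brains, with no overlap. The difference was called at -0.64 (SE 0.14, 1.56-fold lower, adjusted p = 0.00740), and without WT B6 replicate 3 it was -0.57, under 1.5-fold (adjusted p = 0.0260). In *nm1054* brains the same probe had -0.26, 0.01 and -0.34 on 129, against 0.22, -0.01 and -0.19 on B6, and these overlapped (difference -0.20, adjusted p = 0.410).

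At the other *Folr1* probe, ILMN_2707541, it was the *nm1054* brains that did not overlap, with -0.24, -0.30 and -0.45 on 129, against 0.28, -0.04 and 0.44 on B6. That difference of -0.55 missed the adjusted threshold (adjusted p = 0.0587). The WT brains overlapped, since WT B6 replicate 1, at -0.11, lay below all 3 WT 129 brains while the other WT B6 brains stood at 0.64 and 0.66. On centred values the *nm1054* difference was -0.65 and was called (adjusted p = 0.00721). Without the pair of B6 brains highest in *En2*, ILMN_2707541 was called in both genotypes, at -0.69 in *nm1054* (adjusted p = 0.000560) and -0.62 in WT brains (adjusted p = 0.00157). The probes of *Folr1* correlated weakly within groups (r = 0.43, rho = 0.24, exact permutation adjusted p = 0.465 and 0.634).

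*Clic6*, on chromosome 16, encodes a chloride intracellular channel protein found in secretory epithelia. Its values were -0.14, -0.01 and -0.36 in *nm1054* 129 brains, against 0.01, 0.13 and 0.35 in *nm1054* B6 brains, and -0.27, -0.43 and -0.15 in WT 129 brains, against 0.04, 0.30 and 0.32 in WT B6 brains. The strains did not overlap in either genotype, though *nm1054* 129 replicate 2 and *nm1054* B6 replicate 1 nearly met. The difference was -0.33 in *nm1054* (adjusted p = 0.146) and -0.50 in WT brains (adjusted p = 0.0232), both under 1.5-fold, and pooled over both genotypes -0.42 (SE 0.09, adjusted p = 0.00427). The 3 *Aqp1* probes and that of *Clic6* were the 4 of 15 at which the strains lay apart in the same direction in both genotypes, where 12.4% of all probes did so and 3.11% with 129 lower.

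*Otx2*, on chromosome 14, encodes the homeodomain factor named above. Its values were -0.44, -0.34 and -0.78 in *nm1054* 129 brains, against 0.27, 1.00 and -0.17 in *nm1054* B6 brains. They were -0.08, 0.29 and -0.26 in WT 129 brains, against 0.10, 0.08 and 0.08 in WT B6 brains. The strains did not overlap in *nm1054* brains and did in WT brains, and *nm1054* B6 replicate 2 stood far above the rest of its group. Over *nm1054* brains the difference was -0.88 (SE 0.21, 1.85-fold lower, adjusted p = 0.0127). Without *nm1054* B6 replicate 2 it was -0.57 (adjusted p = 0.0858), without *nm1054* 129 replicate 3 it was -0.76 (adjusted p = 0.0659), and neither was called. Without WT B6 replicate 1 and *nm1054* B6 replicate 2 it was -0.57, under 1.5-fold (adjusted p = 0.0429). In WT brains the difference was -0.11 (SE 0.21, adjusted p = 0.764).

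*Otx2* is a gene of the midbrain as well as of the plexus. The brains highest and lowest at *Otx2* were *nm1054* B6 replicate 2 and *nm1054* 129 replicate 3. They were also highest and lowest in the mean of a diencephalon and midbrain list. The genes of that list differed in *nm1054* B6 replicate 2, with *En2* at 3.48, *En1* at 2.18 and *Barhl1* at 2.11. *Th* (-0.01), *Foxa2* (-0.08), *Lmx1b* (-0.19) and *Lhx2* (-0.29) were not raised in that brain. The mean of 14 genes of a diencephalon and midbrain list was -0.24, 0.06 and -0.45 in *nm1054* 129 brains, against 0.11, 0.65 and -0.22 in *nm1054* B6 brains, the same order of replicates as *Otx2* on B6. In WT brains the list had 0.01, 0.12 and 0.01 on 129, against 0.64, -0.43 and -0.19 on B6, where *Otx2* hardly varied. Over deviations from the group means, *Otx2* and the list had r = 0.64 (exact permutation within groups, p = 0.00154, adjusted p = 0.0764 over 198 relations of a gene with a list) and rho = 0.73 (adjusted p = 0.204). Without the 2 brains farthest from the median of the list, r was again 0.64, and on centred values it was 0.68 (exact permutation, adjusted p = 0.382). With the mean of the other 40 choroid plexus genes measured, *Otx2* had r = 0.21 (rho = 0.27, exact permutation adjusted p = 0.477 and 0.583). Of the 22 probes of the diencephalon and midbrain list, 1 was called between *nm1054* 129 and *nm1054* B6 brains, where 3.27% of all probes were. It was 1 of 5 probes of *Tcf7l2*, lower in *nm1054* 129 (-0.78, limma adjusted p = 0.0138). The median difference of the list's probes was -0.19 in *nm1054* and 0.01 in WT brains, beside 0.12 and 0.15 over all probes. The part of midbrain content in the *Otx2* difference was not tested.

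**Figure D2:**
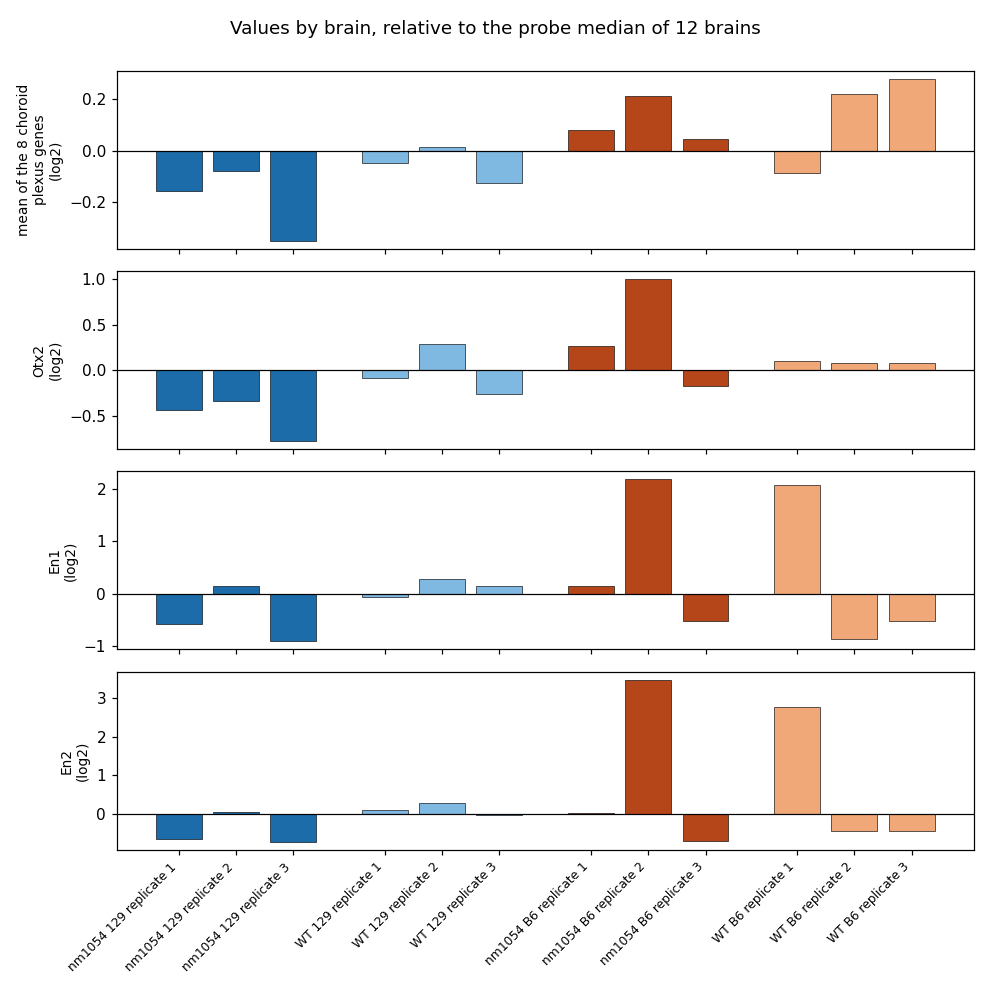
Log2 value relative to the median of 12 brains (y axis) of the mean of the 8 choroid plexus genes, of *Otx2*, of *En1* and of *En2* in each brain (x axis), coloured by group. *En1* and *En2* are high in *nm1054* B6 replicate 2 and WT B6 replicate 1, and *Otx2* is highest in *nm1054* B6 replicate 2 (1.00) and lowest in *nm1054* 129 replicate 3 (-0.78).

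*Ttr*, on chromosome 18, encodes transthyretin, the thyroxine and retinol carrier that the choroid plexus secretes and by which the plexus is usually recognised. Its values were -0.10, 0.02 and -0.25 in *nm1054* 129 brains, against 0.03, -0.09 and -0.02 in *nm1054* B6 brains, and 0.11, 0.05 and -0.04 in WT 129 brains, against -0.25, 0.16 and 0.17 in WT B6 brains. The groups overlapped in both comparisons. The strain difference was -0.08 in *nm1054* brains (95% interval -0.35 to 0.18) and 0.01 in WT brains (-0.25 to 0.28), so neither interval reached 1.5-fold.

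*Enpp2*, on chromosome 15, encodes autotaxin, a secreted enzyme that makes lysophosphatidate and is abundant in CSF. Its probes differed in direction in WT brains. At ILMN_1248580 the difference between 129 and B6 was -0.09 in *nm1054* (adjusted p = 0.727) and 0.29 in WT brains (adjusted p = 0.185). The WT brains did not overlap there, with 129 higher. At ILMN_2772998 it was -0.33 in *nm1054* brains, with no overlap (adjusted p = 0.110), and -0.14 in WT brains (adjusted p = 0.452).

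*Kl*, on chromosome 5, encodes klotho, the co-receptor for Fgf23 that the plexus also sheds into the CSF. Both of its probes had positive differences, and neither was called. ILMN_2930843 had values of 0.25, 0.09 and -0.02 in *nm1054* 129 brains, against -0.18, -0.18 and -0.20 in *nm1054* B6 brains, and of 0.33, 0.33 and 0.01 in WT 129 brains, against -0.57, -0.01 and 0.06 in WT B6 brains. At this probe the strains lay apart in *nm1054* brains and overlapped in WT brains. Pooled over both genotypes the difference was 0.35 (SE 0.10, adjusted p = 0.0266), under 1.5-fold, and 0.23 (adjusted p = 0.0990) once the arrays were centred. The second probe, ILMN_1253148, had 0.22 (adjusted p = 0.0697), and at it the strains lay apart in WT brains with 129 higher. The pair of probes had r = -0.18 and rho = -0.34 within groups (exact permutation adjusted p = 0.702 and 0.439).

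*Sostdc1*, on chromosome 12, encodes a secreted antagonist of Bmp and Wnt ligands. Its difference was -0.36 in *nm1054* brains, which did not overlap (adjusted p = 0.174), and -0.22 in WT brains (adjusted p = 0.360).

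*Aqp4*, on chromosome 18, encodes the water channel of astrocyte endfeet and ependyma, and neither of its probes was called. At ILMN_1227682 the values were 0.17, 0.26 and 0.15 in WT 129 brains, against -0.00, -0.31 and 0.00 in WT B6 brains, which did not overlap (difference 0.29, adjusted p = 0.135). At ILMN_2757232 the strain difference was -0.30 in *nm1054* and 0.43 in WT brains, with single high brains, *nm1054* B6 replicate 2 at 0.79 and WT 129 replicate 1 at 0.72.

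**Figure D3:**
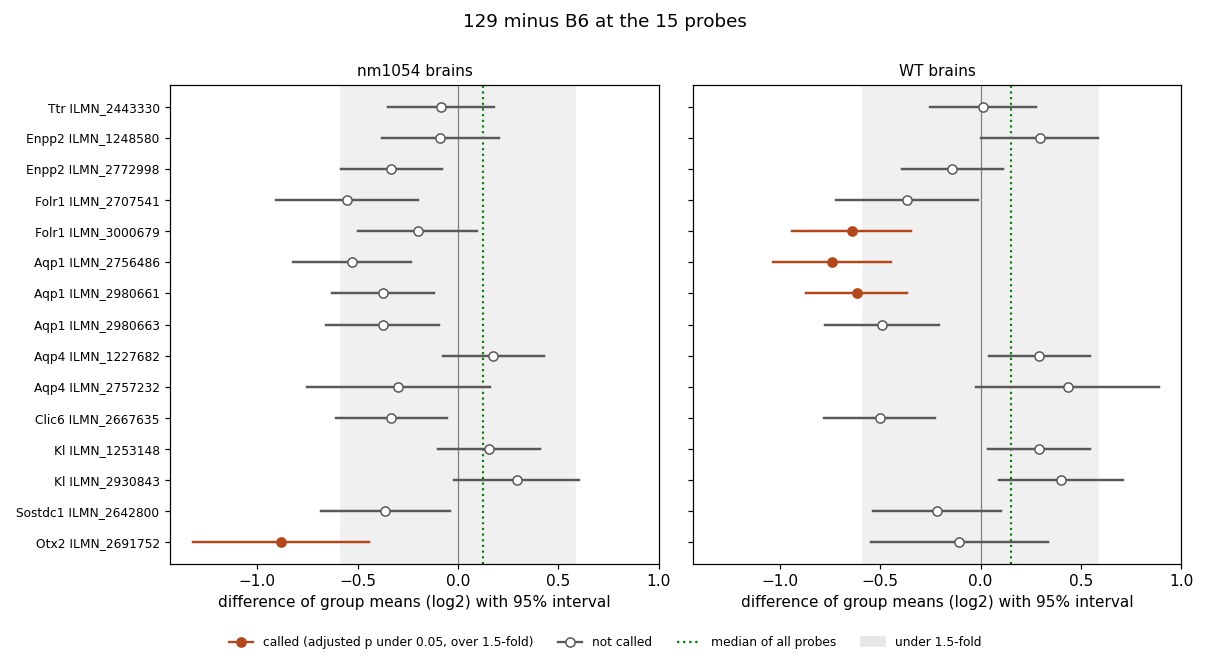
Difference of group means, 129 minus B6 (log2, x axis), with its 95% interval at each of the 15 probes (rows), in *nm1054* brains on the left and WT brains on the right. Filled points are called, the shaded band lies under 1.5-fold, and the dotted line is the median of all probes, 0.12 in *nm1054* and 0.15 in WT brains. The intervals of the 3 *Aqp1* probes, *Clic6* and *Folr1* ILMN_2707541 lie below 0 in both panels.

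Between *nm1054* and WT brains no probe of the 15 was called on either background by limma. On 129, where 0.0199% of all probes were called, 2 of the 15 had an unadjusted p under 0.05, as did 2.65% of all probes. On B6, where 0.0177% of all probes were called, 1 of the 15 did, against 6.12% of all probes. The methods' t-test also called 0 on each, and 0 were called on each without the B6 brains highest in *En2*. The median difference of the 15 probes was -0.13 on 129 and -0.06 on B6, beside -0.05 and -0.02 over all probes. On 129 the 2 probes were *Otx2*, at -0.50 (SE 0.21, adjusted p = 1.00), and *Folr1* ILMN_2707541, at -0.36 (SE 0.17, adjusted p = 1.00). In both, the *nm1054* 129 brains all lay below the WT 129 brains. The probe on B6 was *Folr1* ILMN_3000679, whose *nm1054* B6 brains all lay below the WT B6 brains, at -0.48 (SE 0.14, unadjusted p = 0.00318, adjusted p = 0.639). The genotypes did not overlap at 4 of 15 probes on 129, all lower in *nm1054*, and at 1 on B6, also lower. On 129 these were the 2 probes named above and both probes of *Aqp4*. *Aqp4* had differences of -0.18 at ILMN_1227682 and -0.45 at ILMN_2757232 (limma unadjusted p = 0.155 and 0.0546). Of all probes 11.1% on 129 and 9.22% on B6 did not overlap, and 7.77% and 5.92% did so with *nm1054* lower.

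**Figure D4:**
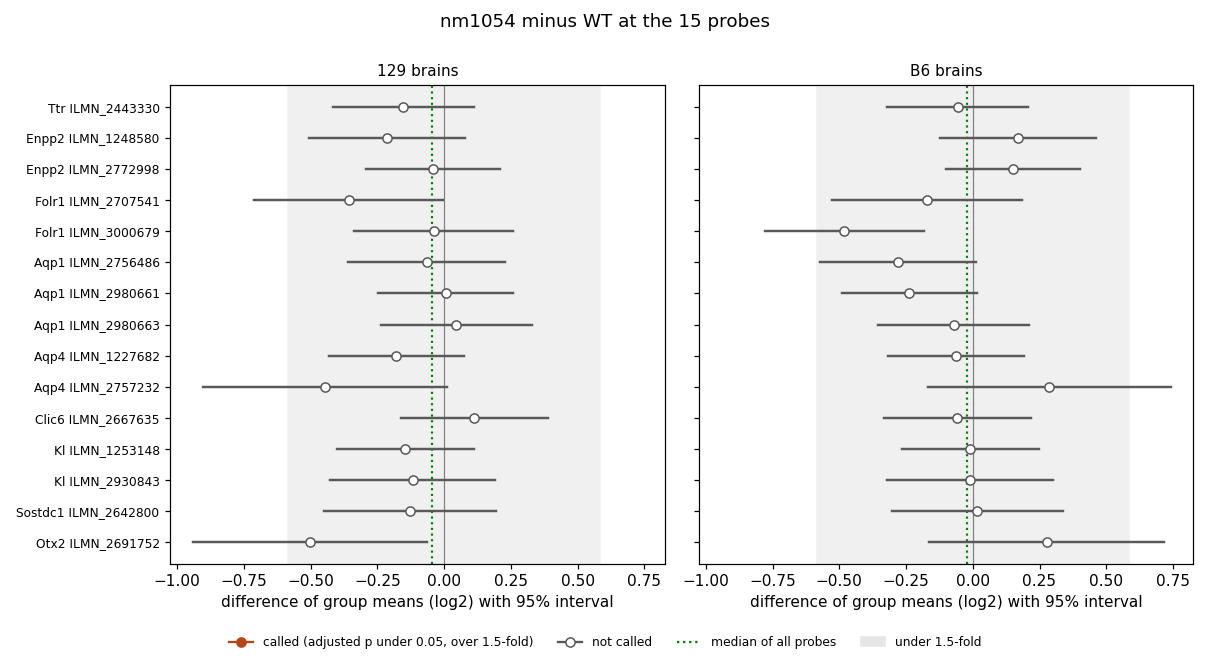
Difference of group means, *nm1054* minus WT (log2, x axis), with its 95% interval at each of the 15 probes (rows), in 129 brains on the left and B6 brains on the right, drawn as for the strains. No point is filled, and the largest differences are -0.50 for *Otx2* on 129 and -0.48 for *Folr1* ILMN_3000679 on B6.

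The interaction of strain and genotype, which asks whether the genotype difference on 129 departs from that on B6, was called at 0 of 15 probes by limma, where 0.00221% of all probes were called. With an unadjusted p under 0.05 it was 3, where 4.09% of all probes passed. They were *Otx2* (-0.78, SE 0.30), *Aqp4* ILMN_2757232 (-0.73, SE 0.31) and *Folr1* ILMN_3000679 (0.44, SE 0.20), each with an adjusted p of 1.00. *Ttr* had an interaction of -0.10 (95% interval -0.47 to 0.28).

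Whether the genes vary together between brains was asked of the deviations of each brain from its group mean, with each gene as the mean of its probes. Over the 8 choroid plexus genes measured, which leave out *Aqp4*, WT B6 replicate 1 lay lowest against its group, with a mean deviation of -0.22, below the group mean at 7 genes and above it at 1. *nm1054* 129 replicate 3 lay below its group mean at all 8 genes, by -0.15 on average. WT B6 replicate 3 (0.14) and *nm1054* 129 replicate 2 (0.12) lay highest on deposited values. Once the arrays were centred these brains had 0.07 and 0.06. On that scale *nm1054* B6 replicate 2 lay highest, at 0.12, and *nm1054* B6 replicate 3 had -0.09. WT B6 replicate 1 also had the lowest array median (-0.17), and its deviation was -0.11 once the arrays were centred, while that of *nm1054* 129 replicate 3 was then -0.09, with 0 of 8 genes above the group mean.

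Of the 36 pairs of the 9 genes, 30 had a positive r and 8 an r over 0.7, with a median of 0.47. Over 240802485 pairs of all genes 65.6% were positive and 8.39% over 0.7, with a median of 0.20. Over pairs of one of the 9 with any other gene 70.8% were positive and 13.2% over 0.7, with a median of 0.30. No pair passed the adjusted threshold of the exact permutation test, which permuted brains within groups over 1296 orders, and 8 had an unadjusted p under 0.05. The share of all pairs of genes under that p was not computed, here or with brains left out, so nothing is concluded from these counts. The highest r was that of *Ttr* with *Folr1* (r = 0.92, rho = 0.85, p = 0.0100 and 0.0139, adjusted p = 0.176 for both). Next came *Enpp2* with *Sostdc1* (r = 0.85, rho = 0.81, p = 0.00617 and 0.0131, adjusted p = 0.176 for both) and *Kl* with *Sostdc1* (r = 0.82, rho = 0.67, p = 0.0270 and 0.0548, adjusted p = 0.187 and 0.321). Without the 2 brains farthest from the median of *Ttr*, of *Enpp2* and of *Kl*, r was 0.79, 0.84 and 0.54.

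The correlations were lower once the arrays were centred. On centred values the median r of the 36 pairs was 0.19 beside 0.00 over all pairs and 0.02 over pairs of one of the 9 with any other gene, 26 were positive, and the pairs over 0.7 were *Ttr* with *Folr1* (0.87) and *Otx2* with *Enpp2* (0.77), where 3.24% of all pairs were. On deposited values the median r was 0.23 without WT B6 replicate 1, with 26 pairs positive and 4 at an unadjusted p under 0.05. Without any other single brain it lay between 0.40 and 0.61, and without WT B6 replicate 1 and *nm1054* B6 replicate 2 together it was 0.44 with 28 positive. *Aqp4* had r from -0.60 (with *Folr1*) to 0.54 (with *Otx2*). Within strains r was taken over the values of the 6 brains without removing genotype means, so differences between genotypes enter it. No pair passed there either (exact permutation of 6 brains, smallest adjusted p = 0.167 over 72 relations). On deposited values an unadjusted p under 0.05 was reached by 13 of 36 pairs in 129 and 4 of 36 in B6. Fewer pairs reached it in either strain once the arrays were centred. In 129 these were *Ttr* with *Otx2*, *Ttr* with *Enpp2*, *Otx2* with *Folr1*, *Otx2* with *Enpp2* and *Folr1* with *Enpp2*. In B6 they were *Ttr* with *Folr1* and *Aqp1* with *Folr1*. The share over all pairs of genes within strains was not computed, so nothing is concluded from these counts. On deposited values *Otx2* with *Enpp2* and *Ttr* with *Enpp2* each had r = 0.95 (rho = 0.94) in 129 brains. *Ttr* with *Folr1* had r = 0.88 (rho = 0.94) in B6 brains. All of these had an exact permutation adjusted p of 0.167 for r and 0.240 for rho.

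**Figure D5:**
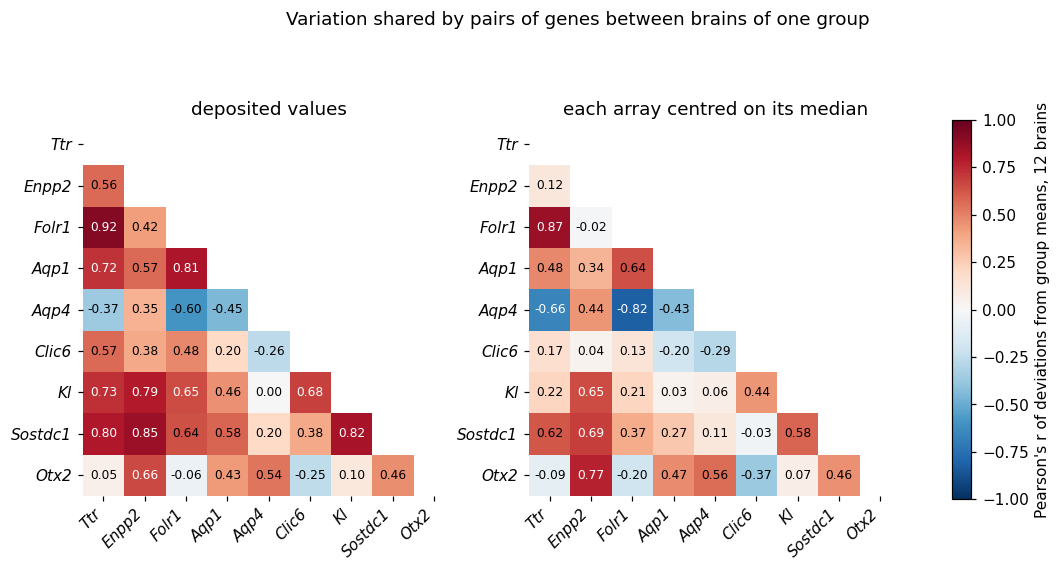
Pearson's r between the deviations from group means of each pair of genes over the 12 brains, on deposited values (left) and with each array centred on its median (right), from -1 in blue to 1 in red. *Ttr* with *Folr1* stays high in both panels (0.92 and 0.87), and *Aqp4* with *Folr1* is the lowest in both (-0.60 and -0.82).

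Against the mean of the other choroid plexus genes, r was 0.88 for *Sostdc1*, 0.87 for *Enpp2*, 0.77 for *Ttr*, 0.76 for *Kl*, 0.74 for *Aqp1*, 0.63 for *Folr1*, 0.33 for *Clic6*, 0.24 for *Otx2* and 0.01 for *Aqp4*. On centred values it was 0.71 for *Sostdc1*, 0.78 for *Enpp2*, 0.46 for *Ttr*, 0.45 for *Kl*, 0.56 for *Aqp1*, 0.26 for *Folr1*, -0.13 for *Clic6*, 0.26 for *Otx2* and 0.01 for *Aqp4*. Only *Sostdc1* and *Enpp2* were over 0.7 under both scalings, and these are descriptions over 12 brains that share arrays and scaling. Of 40 other choroid plexus genes from a list, 36 had a positive r with the mean of the 8 and 11 an r over 0.7, with a median of 0.61. Over all genes 79.1% were positive and 19.3% over 0.7, with a median of 0.44. On centred values 30 of the 40 were positive and 2 over 0.7, where 53.4% and 3.38% of all genes were. *Ecrg4*, a secreted peptide precursor of the plexus, had r = 0.87 (0.73 centred) and *Kcne2*, a potassium channel subunit of its apical membrane, r = 0.82 (0.59 centred). *Tmem72* and *F5*, listed with *Kcne2* as markers of the epithelium, had r = 0.73 (0.57 centred) and 0.54 (-0.08 centred). On deposited values the 4 genes with a negative r were *Cab39l* (-0.67), *Cldn1* (-0.29), *Slc5a5* (-0.22) and *Mfrp* (-0.22). On centred values these stayed negative, and so were *F5*, *Rsph1* (-0.32), *Col8a2* (-0.29), *Cldn2* (-0.28), *Slc29a4* (-0.13) and *Trpv4* (-0.07). The genes most like the mean of the 8 were *Fbxo4*, *Ggact*, *Orc4*, *Them7*, *Vmn2r102*, *Calhm6*, *Aipl1*, *Tipin*, *Aig1* and *Plekho1*, with r from 0.96 to 0.98. None of them is on a list of choroid plexus or other cell type genes used here, and *Ecrg4* ranked 408 among 18620 named genes.

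In the wider list of choroid plexus genes, of 70 probes for 40 measured genes, 1 was called higher and 1 lower in WT 129 than in WT B6 brains, and 1 higher and 0 lower in *nm1054* 129 than in *nm1054* B6 brains, with medians of 0.02 in *nm1054* and 0.04 in WT brains. These calls stand beside the 3.27% of all probes called in *nm1054* and 3.33% in WT brains. *Car14*, a membrane carbonic anhydrase, was lower at ILMN_2973824, by -0.51 in *nm1054* (adjusted p = 0.00845, under 1.5-fold) and -0.59 in WT brains (adjusted p = 0.00215), but at its second probe the differences were 0.14 and 0.08. *Dsp*, which encodes the desmosome protein desmoplakin, was higher at 1 of its 3 probes, by 0.77 in *nm1054* (adjusted p = 0.00103) and 0.64 in WT brains (adjusted p = 0.00574). Of 16 measured genes for the transporters of CSF secretion, 1 of 4 probes of *Slc4a4*, a sodium bicarbonate cotransporter, was called between WT strains (0.71, adjusted p = 0.00564). None of 10 further aquaporins and none of 10 genes of folate transport was called in either strain comparison by limma. With an unadjusted p under 0.05 these were 4 of 17 aquaporin probes in each genotype, and of 26 folate probes 3 in *nm1054* and 6 in WT brains, where 22.2% of all probes in *nm1054* and 26.7% in WT brains passed. No probe of these 4 lists was called between *nm1054* and WT brains by limma. In the wider choroid plexus list 1 of 70 probes on 129 and 4 on B6 had an unadjusted p under 0.05, where 2.65% of all probes on 129 and 6.12% on B6 did.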

How the data were processed

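RNA of whole brains was hybridised to Illumina MouseWG-6 arrays, one array for each of the 12 mice. The authors read the arrays in GenomeStudio and normalised them in GeneSpring GX, and the deposited values are log2 intensities minus the median of the probe over the 12 arrays, which leaves no detection call, depth or absolute level. Probes were named through the platform annotation, with symbols updated in RefSeq by Entrez gene ID (28620 probes) or accession (2637) and kept as given for 4527, and 9497 probes had no single symbol. The members and gene lists were chosen with earlier results of these data known.

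All probes were fitted with limma 3.58.1 in R 4.3.3 as 4 group means without covariates (8 residual and 10.8 prior degrees of freedom), and p-values were Benjamini-Hochberg adjusted over 45281 probes. A call needed an adjusted p under 0.05 and, except for the interaction, a fold change over 1.5. An exact permutation test of 3 against 3 brains cannot go below p = 0.10, and the unpaired t-test that the study's methods name was run as an alternative. Replicates are separate mice. The fits were tested on simulated data with known changes.

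Pairs of genes were tested in Python 3.11.15 (numpy 2.4.6, scipy 1.17.1) on deviations from group means by permuting brains within groups, two-sided over all 1296 orders (smallest p 0.00077), with adjustment over 36 pairs. Within strains the values of a strain's brains were permuted without removing genotype means. A gene's value was the mean of its probes. All 15 probes were described, and genes named for likeness were the 10 with the highest r to the mean of the 8 choroid plexus genes on deposited values. Called genes were named from the lists of choroid plexus genes, CSF secretion transporters, aquaporins, folate transport, and the diencephalon and midbrain. Called genes of the other lists were not named. *Ecrg4*, *Kcne2*, *Tmem72*, *F5* and the genes of the list with a negative r were chosen after their values were seen. So were *En1*, *En2* and the other named genes of the diencephalon and midbrain list except *Tcf7l2*. Alternatives were the t-test, fits of each comparison alone, array weights, centring, quantile normalisation, removal of the less variable probes, no fold threshold, gene means, a replicate block and leaving out brains.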

Additional observations from a re-analysis of the deposited data

How the results depend on the processing

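Counts of called probes are given for 129 minus B6 in *nm1054*, in WT and over both genotypes, in that order, where limma on the deposited values gave 1, 3 and 1. Centring gave 3, 5 and 3, quantile normalisation 3, 5 and 2, and dropping the fold threshold 2, 5 and 8. The methods' t-test gave 0 in *nm1054* and 0 in WT brains, and means over the probes of a gene gave 1, 1 and 0. Leaving out 1 brain gave 0 to 1, 2 to 5 and 0 to 2, and leaving out WT B6 replicate 1 and *nm1054* B6 replicate 2 together, chosen after seeing the data, gave 1, 5 and 2. The call of *Aqp1* ILMN_2756486 in WT brains was lost under the t-test alone (adjusted p = 0.205 there, the highest over its 21 alternatives). The count over both genotypes was 2 without WT B6 replicate 1 or *nm1054* B6 replicate 3 and 0 without WT B6 replicate 2. The cause was not tested. The genotype comparisons and the interaction had 0 calls under every alternative run. No called value changed sign.

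With the replicate number as a block, the counts stayed at 1, 3 and 1 and those of the genotype comparisons at 0. Brains of the same number had r from -0.32 to 0.19 between their deviations, over 0.1 in 2 of 18 pairs. Brains of different numbers had r from -0.32 to 0.41, over 0.1 in 10 of 36 pairs. The numbers were not treated as pairs, and whether they mark a shared batch was not tested. Of the 36 gene pairs 5 passed with the block against 0 without it. The permutation within groups did not keep the block, so those p-values may be too small and nothing is concluded from the 5. When each gene was taken from its probe of largest SD 1 passed, *Kl* with *Sostdc1*. Centring, quantile normalisation, Spearman's rho, leaving out *Aqp4* and leaving out any brain gave 0. Arrays of 3 brains a group limit the precision: the 95% interval of *Otx2* in *nm1054* brains ran from -1.32 to -0.45.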

Other observations

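The mean of the 8 choroid plexus genes was also set against genes of other tissues, by the deviations of the 12 brains from their group means. Of 21 genes of the meninges, the membranes around the brain, 19 had a positive r with that mean and 8 an r over 0.7, with a median of 0.62. Over all genes 79.1% were positive and 19.3% over 0.7, with a median of 0.44. On centred values 18 of the 21 were positive with a median of 0.41, beside 53.4% positive and a median of 0.04 over all genes. The 40 other choroid plexus genes had a median of 0.29 on centred values with 30 positive. The 23 genes of ependyma and motile cilia had a median of 0.16 as deposited and -0.18 centred, with 18 and 7 positive. Genes of the diencephalon and midbrain had the lowest median of the 23 lists on deposited values, -0.15 over 14 genes, and 0.06 on centred values. These are descriptions over 12 brains, and genes of a list share the arrays.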
